A study of Rattus norvegicus with 20 samples.

Results

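The mir-200 family is a group of microRNA (miRNA) genes known chiefly from epithelial cells. Its members in these rat small RNA data were 5 hairpin precursors, rno-mir-200a, rno-mir-200b, rno-mir-429, rno-mir-200c and rno-mir-141, of 444 precursors listed, together with the 8 arms listed for them among 577 mature miRNAs. The rule that picked them used their names. The libraries came from untreated, non-drinking male Long Evans rats at postnatal day 35, an outbred laboratory stock in early adolescence. A single cohort of 3 rats supplied every sample, so the groups compared share their donors. Brain hemispheres and serum were sequenced 1 animal to a library, while RNA of all 3 rats was mixed into 1 library each for stomach, small intestine, large intestine, skin, lung, kidney, pancreas, liver, testes, thymus, spleen, heart, hindlimb muscle and fat from under the skin of the abdomen. There was no treated group, and the animal-to-animal spread inside each of the 14 pools cannot be seen. The profiles were collected to ask which tissues could contribute the miRNAs found in serum.

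As background, miRNAs are cut from hairpins and guide silencing proteins to messenger RNAs, chiefly through the seed, bases 2 to 8 of the mature strand. The mir-200 family is best known for repressing the transcription factors ZEB1 and ZEB2, which in turn repress E-cadherin and the mir-200 genes themselves, so that the family is abundant in lining and glandular epithelium and low in mesenchymal cells. Its genes lie in a pair of clusters on different chromosomes, mir-200b/mir-200a/mir-429 and mir-200c/mir-141, and each cluster makes strands of both family seeds. The -3p strands of mir-200b, mir-200c and mir-429 share one seed, and those of mir-200a and mir-141 share the other, so the clusters and the seeds divide the family differently. In the RefSeq gene order for the GRCr8 assembly, Mir200b, Mir200a and Mir429 lie inside the coding gene Ttll10, between Tnfrsf18 and C5h1orf159, while Mir200c and Mir141 lie between Phb2 and Ptpn6. The deposited reads were mapped to another build, Rn5, so no coordinates are given.

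Mature sequences were found in RefSeq (GRCr8) for 5 of the 8 arms counted, and for 1 further arm, miR-200c-5p, which is shown for comparison but has no counts here. They are printed 5′ to 3′ with the seed in capitals, because the seed sets which strands are read as one family. The arms miR-200a-3p, miR-200b-3p and miR-429 are given by name only.

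rno-miR-200c-3p: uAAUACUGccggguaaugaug
rno-miR-141-3p: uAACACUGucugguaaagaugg
rno-miR-200b-5p: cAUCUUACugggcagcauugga
rno-miR-200a-5p: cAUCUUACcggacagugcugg
rno-miR-200c-5p: cGUCUUACccagcaguguuug
rno-miR-141-5p: uCCAUCUUccagugcaguguug

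The -3p strands of the mir-200c/mir-141 cluster differed at 4 of 21 aligned positions, counted from 1 at the 5′ end, as U4C, C9U, G11U and U17A from miR-200c-3p to miR-141-3p. Only the U4C substitution fell in the seed, and it separated the seed of miR-200c-3p from that of miR-141-3p. The passenger-side strands miR-200b-5p and miR-200a-5p had the same seed, AUCUUAC, and differed at 5 of 21 positions outside it. The seeds of miR-200c-5p (GUCUUAC) and miR-141-5p (CCAUCUU) differed from AUCUUAC and from each other.

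Levels are RPM, reads scaled to a common total of 1000000 for the reads counted on the same list, that is, on all precursors or on all mature arms of a library. Precursor totals ran from 388275 to 1204552 reads in the brain libraries, from 162080 to 3685761 in the pools and from 7556 to 10862 in serum, so 3 reads, used here as the limit of a count of 0, corresponded to up to 7.73, 18.5 and 397 RPM respectively. The neuronal precursors rno-mir-124-1 to rno-mir-124-3 summed to 4642 RPM in brain and to at most 1.52 RPM elsewhere. The pool labelled pancreas went against its label: mir-122, the hepatocyte miRNA, stood at 14862 RPM there, 14726 RPM in liver and no more than 8.17 RPM in the remaining tissues, while mir-216a and mir-217, pancreatic miRNAs looked up after the values were seen, had 0 reads. The class comparison, the comparison of brain with the pools and the profile correlations are therefore given with and without it. Intervals and limits cover counting error only, and in these bulk samples fewer cells of a type and less RNA per cell cannot be told apart.

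Summed over the 5 precursors, the family was highest in the gut and in other tissues with a lining epithelium and lowest in striated muscle. Large intestine held 15432 RPM and small intestine 9434 RPM, followed by skin with 7631 RPM, stomach with 6048 RPM and lung with 5752 RPM. Thymus (4418 RPM), the brain hemispheres (4176 ± 873 RPM, SD, n = 3) and kidney (3736 RPM) came next, and thymus and kidney lay within 1 SD of the brain mean, so these 3 do not have a firm order. Liver (976 RPM), the library labelled pancreas (912 RPM) and fat (466 RPM) were lower. Spleen (183 RPM), testes (136 RPM), heart (48.6 RPM) and muscle (24.6 RPM) closed the order. The order depends on the total chosen as the divisor and, as given below, on the scaling of library sizes. In small intestine Mir215 alone took 456246 reads, 50.3% of the RefSeq list, and has no row in the precursor list, and on the RefSeq total the family sum there was 4877 RPM, which moved it from rank 2 to rank 5 of the 15 tissues. Read counts of the 5 members themselves were the same under both lists.

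Of the single members, mir-141 reached 5206 RPM in large intestine, 3792 RPM in skin, 3509 RPM in thymus, 3399 RPM in lung, 3297 RPM in stomach and 2634 RPM in small intestine. It was the family's most read precursor in 10 of the 14 pools, the others being kidney, liver, small intestine and the library labelled pancreas. In the hemispheres it stood at 1094, 1062 and 822 RPM (993 ± 149 RPM, SD, n = 3), and in kidney at 688 RPM. Fat (215 RPM), liver (155 RPM), spleen (155 RPM), the library labelled pancreas (99.1 RPM), testes (92.5 RPM), heart (31.2 RPM) and muscle (10.3 RPM) were low. Counting intervals of liver and spleen overlapped, from 118 to 204 RPM and from 110 to 217 RPM.

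The precursor mir-200b was the most gut-weighted member of its cluster. It held 4624 RPM in large intestine and 3874 RPM in small intestine, then 1719 RPM in skin, 1118 RPM in stomach and 935 RPM in kidney. The hemispheres read 859, 1050 and 595 RPM (835 ± 228 RPM, SD, n = 3), a spread that includes lung at 731 RPM and kidney. Liver at 500 RPM and the library labelled pancreas at 471 RPM had overlapping intervals, 429.1 to 582.6 RPM and 385.3 to 575.6 RPM. Thymus was at 153 RPM and fat at 108 RPM. Spleen, testes, heart and muscle had 1 to 4 reads each.

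The precursors mir-429 and mir-200a had brain at rank 3 in their orders on the precursor total. For mir-429, large intestine stood at 3270 RPM, small intestine at 1750 RPM and brain at 1397 ± 388 RPM (SD, n = 3), with hemispheres at 1516, 1712 and 963 RPM. Kidney at 1189 RPM, skin at 1156 RPM and lung at 1004 RPM lay within the spread of the hemispheres. For mir-200a, large intestine stood at 2218 RPM, small intestine at 958 RPM, brain at 929 ± 125 RPM (SD, n = 3; 907, 1064 and 816 RPM), kidney at 919 RPM and skin at 877 RPM, so that the last 4 did not differ beyond the brain spread. Large intestine exceeded brain 2.39-fold for mir-200a and 2.34-fold for mir-429, against 5.54-fold for mir-200b and 5.25-fold for mir-141. On the RefSeq total, which includes Mir215, brain held rank 2 and small intestine rank 7 for both mir-200a and mir-429. Brain then stood at 957 RPM and small intestine at 495 RPM for mir-200a, and at 1439 and 905 RPM for mir-429. When library sizes were scaled by TMM (trimmed mean of M values), the brain level of each member lay closer to the median tissue. Brain then held rank 6 for mir-200a and for mir-429. For mir-200a it stood at 592 RPM, small intestine at 2176 RPM, kidney at 1762 RPM and skin at 722 RPM. For mir-429 brain stood at 905 RPM and kidney at 2279 RPM. Large intestine reached 4733 RPM for mir-200a and 6977 RPM for mir-429. The likeness of brain to small intestine and kidney thus depended on the scaling. In the family sum under TMM, thymus (7761 RPM) and kidney (7164 RPM) stood above skin (6283 RPM), lung (4298 RPM) and brain (2689 RPM). On plain RPM thymus, skin and lung already stood above brain, but skin and lung stood above thymus and kidney.

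The precursor mir-200c was scarce everywhere. It reached 218 RPM in small intestine, 114 RPM in large intestine (419 reads), 89.5 RPM in lung, 87.7 RPM in skin and 36.5 RPM in stomach. The hemispheres held 12.5, 35.0 and 20.6 RPM, from 43 reads in all. Thymus with 7.59 RPM and kidney with 4.91 RPM rested on 5 and 3 reads. Heart, spleen, testes and the library labelled pancreas had 0 reads, which at their depths allowed up to 5.21, 14.1, 18.5 and 14.9 RPM respectively.

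**Figure D1:**
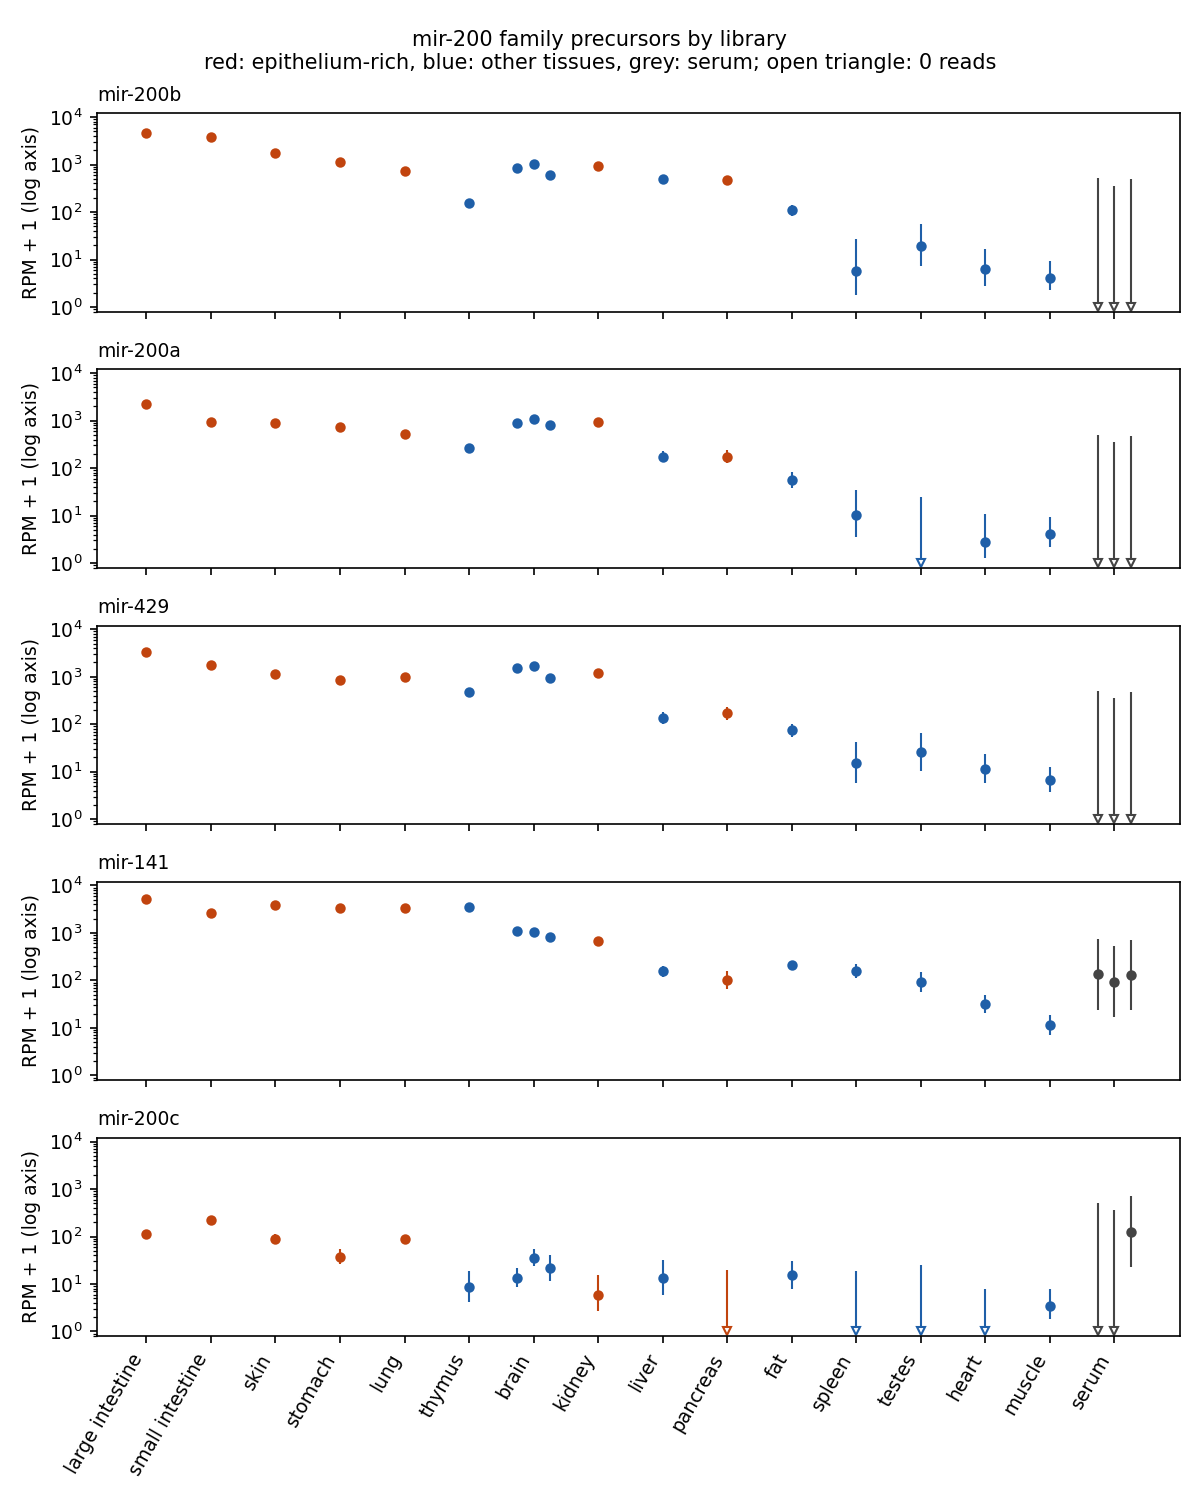
Each panel plots 1 precursor of the mir-200 family as RPM + 1 on a log axis for all 20 libraries, with 95% Wilson intervals; red marks tissues rich in epithelium, blue other tissues and grey serum, and open triangles mark 0 reads. Large intestine leads for 4 precursors (5206 RPM for mir-141) and small intestine for mir-200c (218 RPM), and muscle and heart lie near the bottom.

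Thymus and spleen, both lymphoid organs, differed in their family levels. The 5 leukocyte miRNAs, mir-142 and mir-146a among them, summed to 69751 RPM in thymus and 71303 RPM in spleen. Most of each sum was mir-142, at 65299 RPM in thymus and 59167 RPM in spleen, so the likeness of the sums rests mainly on that miRNA. The family sum was 4418 RPM in thymus and 183 RPM in spleen. The fold of thymus over spleen was 22.7 for mir-141, 28.0 for mir-200a, 32.7 for mir-200b and 34.6 for mir-429, where the spleen values of the last 3 rested on 2, 1 and 3 reads. Each tissue was 1 pooled library, and these differences have no replicate check.

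The clusters did not keep a fixed ratio. The mir-200c/mir-141 cluster gave 79.6% of the family's reads in thymus (95% Wilson interval 78.1 to 81.0%), 60.6% in lung (59.8 to 61.5%), 55.1% in stomach (53.7 to 56.5%) and 50.8% in skin (49.6 to 52.1%). It gave 34.5% in large intestine (34.1 to 34.9%) and 30.2% in small intestine (28.9 to 31.6%). The brain hemispheres held 25.2, 22.3 and 26.2% (24.6 ± 2.03%, SD, n = 3). Kidney with 18.6% (17.02 to 20.20%), liver with 17.2% (13.4 to 21.7%) and the library labelled pancreas with 10.9% (7.15 to 16.2%) were lowest on the precursor list. Among reads on listed mature arms liver held 27.2% and the library labelled pancreas 17.8%, against 21.6% in kidney and 27.6% over the hemispheres, so liver was then no longer below kidney or apart from brain. The 3 hemispheres thus differed among themselves by far less than the tissues did, and lung and kidney, both rich in epithelium, lay on opposite sides of brain. Fat stood at 49.1% (42.7 to 55.6%). Muscle (51.6%), heart (64.3%), testes (68.2%) and spleen (84.6%) had under 50 family reads each, and their intervals were wide. Among the 13 libraries with at least 50 family reads, the share ran from 10.9 to 79.6% with a median of 30.2%.

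**Figure D2:**
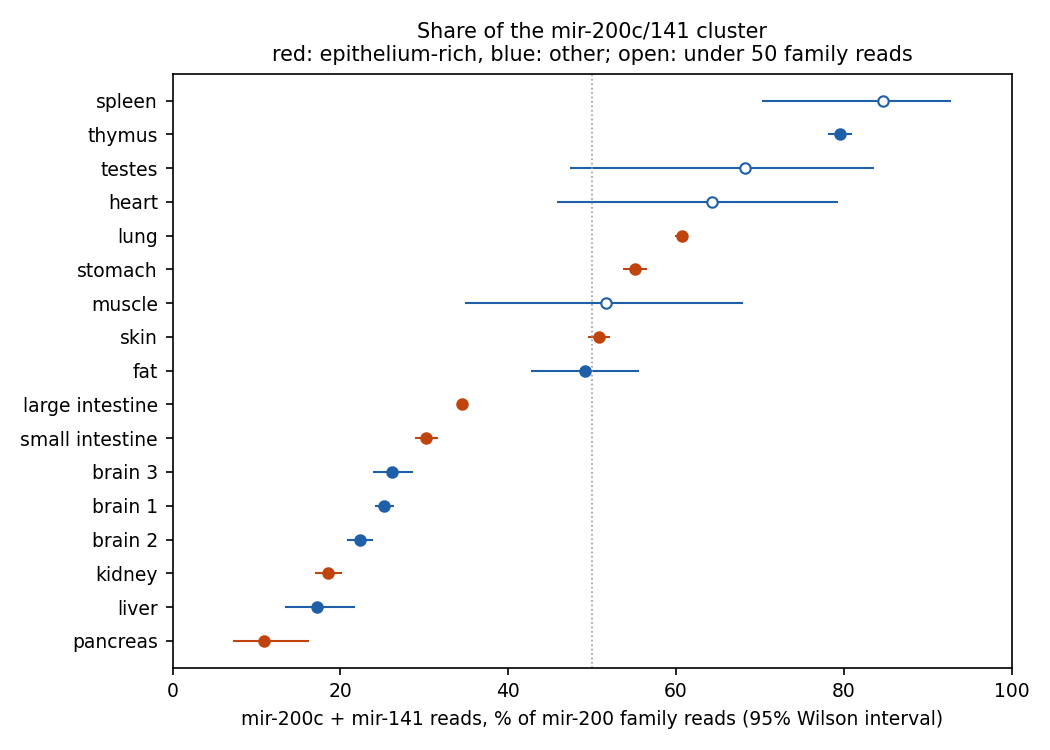
Points give reads of mir-200c and mir-141 as a percent of all mir-200 family reads in each tissue library, with 95% Wilson intervals; red marks tissues rich in epithelium, blue other tissues, and open points libraries with under 50 family reads. Thymus stands at 79.6% and lung at 60.6%, while the 3 hemispheres sit together between 22.3 and 26.2%.

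Over the 15 tissues (the hemispheres averaged), the log2(RPM + 1) profiles of members of the mir-200b/mir-200a/mir-429 cluster had Pearson r of 0.936 (mir-200a with mir-200b), 0.951 (mir-200a with mir-429) and 0.957 (mir-200b with mir-429). The value was 0.803 for mir-200c with mir-141. Between clusters it ran from 0.787 (mir-200a with mir-200c) to 0.911 (mir-429 with mir-141), and the summed clusters gave 0.874. These values are descriptions over 15 points that share libraries and depths. The profile of mir-141 was closer to that of mir-429 than to that of its own cluster partner mir-200c, whose counts were low. Without the library labelled pancreas, over 14 tissues, r was 0.937, 0.954 and 0.965 within the first cluster, 0.795 for mir-200c with mir-141, 0.844 to 0.926 between members of different clusters and 0.907 for the summed clusters.

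Within the mir-200b/mir-200a/mir-429 cluster, mir-200b made up 17.003% of reads in thymus (14.2 to 20.2%), 26.2 ± 1.19% in the hemispheres (SD, n = 3), 30.7% in kidney and 32.3% in lung. It made up 45.7% in large intestine, 45.8% in skin, 58.9% in small intestine (57.1 to 60.6%), 57.9% in the library labelled pancreas and 61.9% in liver (55.9 to 67.5%). The precursor mir-429 ran the other way, from 53.9% in thymus, 43.8 ± 2.92% in the hemispheres (SD, n = 3) and 44.3% in lung down to 26.6% in small intestine and 16.6% in liver. On the precursor list the share of mir-200a moved least in percentage points. It ran from 14.6% in small intestine to 30.2% in kidney among the pools, with hemispheres at 27.6, 27.8 and 34.4%. Among reads on listed mature arms it ran from 9.42 to 34.4% over the tissue libraries with at least 50 cluster reads. The mir-429 share there ran from 35.8 to 62.5%, a range of like width. The high mir-200b share of liver and of the library labelled pancreas depended on the list: among reads on listed mature arms it was 35.8 and 33.8%, close to 33.6% in large intestine, while small intestine had 51.2% and thymus 10.8%. The mir-429 share on that list was 35.8% in liver, 39.4% in small intestine and 62.5% in thymus.

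**Figure D3:**
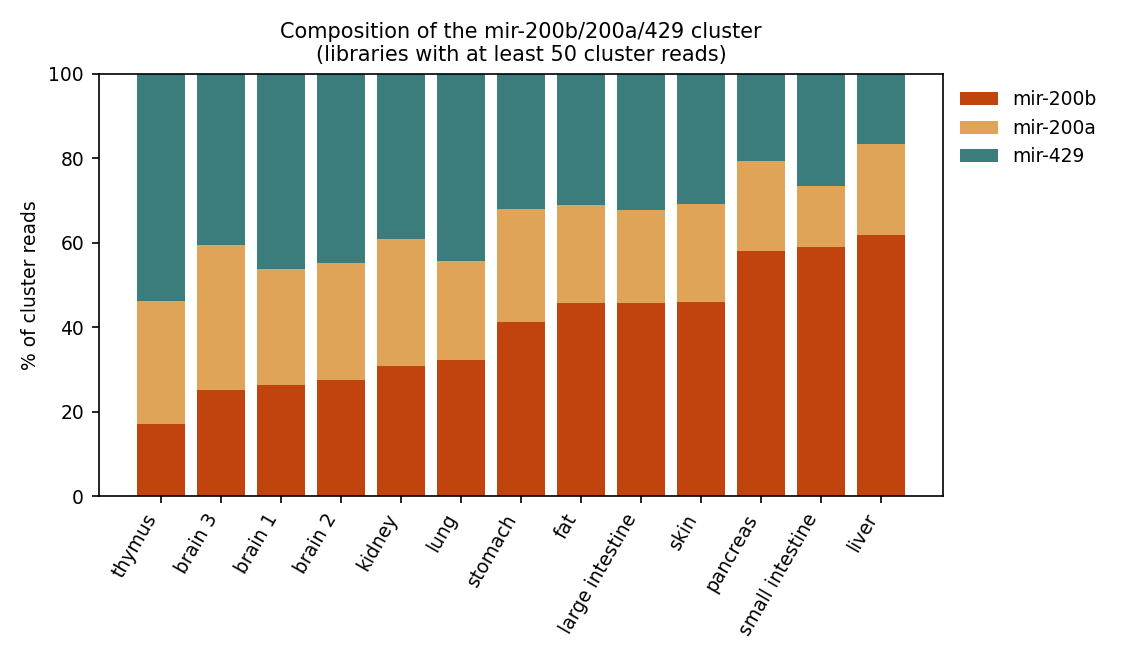
Stacked bars give the percent of mir-200b/mir-200a/mir-429 cluster reads from each precursor in libraries with at least 50 such reads. The mir-200b part grows from 17.003% in thymus to 61.9% in liver while the mir-429 part shrinks from 53.9 to 16.6%.

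In the mir-200c/mir-141 cluster, mir-141 took nearly all reads. The part of mir-200c was 0.216% in thymus (0.0922 to 0.504%), 0.708% in kidney, 1.10% in stomach, 2.14% in large intestine (1.94 to 2.35%), 2.26% in skin and 2.57% in lung. In small intestine it was 7.63% (6.33 to 9.18%), the highest among libraries with at least 50 reads of the cluster, where fat (6.25%) and liver (7.27%) rested on 7 and 4 reads of mir-200c. Muscle had 18.8% (6.59 to 43.0%), from 3 of 16 reads. The hemispheres gave 1.13, 3.19 and 2.45%, a wider relative spread than for the other shares.

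The arms showed where those reads fell. Over the 17 tissue libraries, the -3p strand took 99.3% of the arm reads of mir-200a, 99.4% of those of mir-200b and 99.9% of those of mir-141, while the mature list has a single strand each for mir-429 and mir-200c. The printed -5p strands miR-200a-5p, miR-200b-5p and miR-141-5p had 69, 80 and 44 reads in all. Reads on the listed arms made up 96.8% of precursor reads for mir-429 and 94.1% for mir-141, but 72.7% for mir-200a, 53.8% for mir-200b and 10.6% for mir-200c (95 of 895 reads). The median over 254 precursors with at least 100 reads was 65.9%, with arms matched to hairpins by exact name. For a numbered hairpin such as let-7a-1 this left out unnumbered arms such as let-7a-5p. That median can be too low, so it is no yardstick for the family. For mir-200b the percent was 26.8% in liver and 64.3% in lung, and for mir-200a it was 41.8% in small intestine and 79.8% in lung. Reads counted on a hairpin but not on a listed arm were therefore an unequal part of each member. On the mature list miR-200c-3p stood at 16.0 RPM in small intestine (6 reads, 7.33 to 34.9 RPM). It stood at 15.1 RPM in lung (30 reads, 10.6 to 21.5 RPM) and 13.4 RPM in large intestine (38 reads, 9.78 to 18.4 RPM). These intervals overlapped.

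RefSeq also places the rat hairpins Mir3548 and Mir3575 on the strand opposite Mir200a and Mir200c. They drew few reads: mir-3548 had at most 3.87 reads in a library and mir-3575 at most 5.64e-09. Whether the counting used strand is not given in the sources used here.

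**Figure D4:**
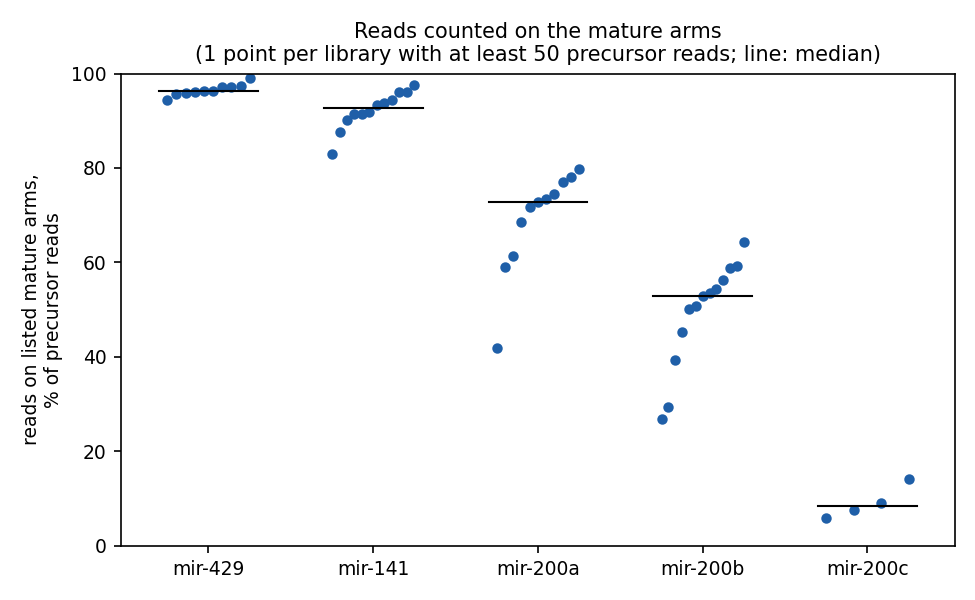
Each point is the percent of a precursor's reads that were counted on its listed mature arms in 1 library with at least 50 precursor reads, and the line is the median over libraries. The precursors mir-429 and mir-141 sit above 83%, mir-200b between 26.8 and 64.3%, and mir-200c between 5.88 and 14.02%.

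Grouped by the known -3p seeds, miR-200a-3p and miR-141-3p together gave 86.5% of the family's -3p reads in thymus (85.2 to 87.8%), 72.0% in stomach, 71.7% in lung and 64.3% in skin, the remainder being miR-200b-3p, miR-200c-3p and miR-429. The share was 53.8% in large intestine (53.4 to 54.3%) and 48.5 ± 5.30% in the hemispheres (SD, n = 3; 46.7, 44.3 and 54.5%). Kidney (42.8%), small intestine (40.1%) and the library labelled pancreas (39%, of 100 reads) were lowest. On the same mature list the mir-200c/mir-141 cluster share was 40.4% in large intestine and 28.0 ± 2.83% in the hemispheres (SD, n = 3). By seed these tissues lay about 1 SD apart, with the hemispheres on both sides of large intestine.

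In serum the family was nearly unread. The precursors mir-200a, mir-200b and mir-429 had 0 reads in each of 3 serum libraries, mir-141 had 1 read in each (132, 92.1 and 126 RPM; 117 ± 21.7 RPM, SD, n = 3) and mir-200c had 1 read in 1 library. At the brain level, the summed serum depth of 26348 reads would have held 24.5 reads of mir-200a, 22.0 of mir-200b, 36.8 of mir-429 and 26.2 of mir-141, but only 0.598 of mir-200c, too few for this depth to compare serum with brain for that precursor. Against the limit of 3 reads over the group (114 RPM), serum was at least 8.16-fold lower than the brain mean for mir-200a, at least 7.33-fold lower for mir-200b and at least 12.3-fold lower for mir-429.

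The 3 brain and 3 serum libraries, the replicated groups of the study, were compared with edgeR's quasi-likelihood test. Of 235 precursors tested, 105 were higher in brain (44.7%) and 44 higher in serum (18.7%), with a median log2 fold change of 2.15 over all tested. The fitted log2 fold change of mir-141, brain over serum, was 2.98 (SE 0.46, Benjamini-Hochberg adjusted p = 0.000109). The adjusted p was 0.000152 for mir-200a, 0.000571 for mir-200b and 0.000102 for mir-429 (edgeR). With 0 or 1 read in each serum library, all 4 passed the count filter through the brain libraries alone, so that they had to differ and their calls are no support, and all 4 left the tested set whenever a hemisphere was left out. The precursor mir-200c did not pass the filter. Since 44.7% of all precursors were called in the same direction, the family's calls do not set it apart. In the same edgeR test the neuronal list had 3 of 3 members higher in brain. The leukocyte list had 3 of 3 tested members higher in serum, as was the hepatocyte miRNA mir-122 (adjusted p = 1.47e-05). The neuronal precursors stood at 0 RPM in every serum library and mir-122 at 0 RPM in brain. They too passed the filter through 1 group alone, so their calls are no support either.

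Against the 14 pools taken as 1 group, no member was called in brain, where 24.1% of 295 precursors were higher and 18.6% lower (edgeR quasi-likelihood test; without 1 hemisphere, 24 to 26 precursors were higher and 14 to 16 lower, against 71 and 55 with all 3). The log2 fold changes were -2.25 for mir-141 (SE 1.72, adjusted p = 0.268), -2.52 for mir-200c (SE 1.90, adjusted p = 0.260), -2.05 for mir-200b (SE 1.95, adjusted p = 0.372), -0.78 for mir-200a (SE 1.71, adjusted p = 0.707) and -0.73 for mir-429 (SE 1.61, adjusted p = 0.707). With library totals in place of TMM the values of mir-200a and mir-429 turned to 0.91 and 0.94 while the median over all tested precursors went from 0.17 to 1.19, and with DESeq2 mir-141 was called lower in brain (-3.02, adjusted p = 0.0355), as were 40.3% of all precursors in that fit. Without the library labelled pancreas the edgeR values ran from -2.80 for mir-200c to -0.999 for mir-429, again with no member called. The hemispheres are 1 tissue, so these p-values may be too small.

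The label epithelial was examined by setting 7 tissues with a lining or glandular epithelium (kidney, lung, stomach, small intestine, large intestine, skin and pancreas) against the other 8 (brain as the sum of its libraries, fat, heart, muscle, spleen, thymus, testes and liver), with tissue as the replicate. The tissues came from the same 3 rats and are not independent animals, so the p-values measure the spread between tissues. The median precursor level was 3297 RPM in the first class and 155 RPM in the second for mir-141, 1118 and 63.4 RPM for mir-200b, 1156 and 49.1 RPM for mir-429, 877 and 32.3 RPM for mir-200a, and 87.7 and 4.99 RPM for mir-200c. The classes overlapped for every member. The lowest value of the first class was always the library labelled pancreas, and between 2 and 5 of the 8 other tissues stood above it. Without that library the lowest values were 528 RPM for mir-200a and 731 RPM for mir-200b in lung and 873 RPM for mir-429 in stomach, with brain the only other tissue above each, while kidney was lowest for mir-141 (brain and thymus above it) and mir-200c (4 tissues above it).

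All 5 log2 fold changes were positive and none passed the adjusted threshold. They were 4.51 for mir-200b (SE 1.21, adjusted p = 0.0887), 4.48 for mir-200c (SE 1.15, adjusted p = 0.0832), 3.67 for mir-200a (SE 1.22, adjusted p = 0.173), 3.63 for mir-429 (SE 1.12, adjusted p = 0.173) and 2.85 for mir-141 (SE 1.15, adjusted p = 0.213; edgeR quasi-likelihood test). They ranked 2, 3, 8, 9 and 11 of 246 precursors tested, whose median was -0.32. With library totals in place of TMM they were lower, from 2.06 for mir-141 to 3.37 for mir-200c, over a median of -0.88. Without the library labelled pancreas they ran from 3.03 for mir-141 (adjusted p = 0.239) to 4.67 for mir-200c (adjusted p = 0.0563; edgeR), with no precursor called. No precursor of the 246 was called in either direction (0%), and at an unadjusted p under 0.05 there were 14 higher and 30 lower. DESeq2 on the same counts called 7 higher (2.85%) and 5 lower (2.03%), among the former mir-200c (adjusted p = 0.00203), mir-200b (adjusted p = 0.00226), mir-429 (adjusted p = 0.0267) and mir-200a (adjusted p = 0.0471), but not mir-141. With edgeR, leaving out liver brought mir-200b (adjusted p = 0.0283) and mir-200c (adjusted p = 0.0352) past the threshold, where 3.28% of precursors were called higher.

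On the mature list no arm of 240 tested was called (0%; at an unadjusted p under 0.05, 12 higher and 28 lower; with DESeq2, 2 higher and 2 lower, 0.833% each). The log2 fold change was 4.50 for miR-200b-3p (SE 1.25, adjusted p = 0.181), 3.26 for miR-429 (adjusted p = 0.244), 3.17 for miR-200a-3p (adjusted p = 0.244), 2.96 for miR-200b-5p (adjusted p = 0.244) and 2.54 for miR-141-3p (adjusted p = 0.289; edgeR). The strands miR-200c-3p, miR-200a-5p and miR-141-5p were too scarce to test. Without the library labelled pancreas miR-200b-3p stood at 4.61 (adjusted p = 0.178) and no arm was called (edgeR). These are the same reads counted on a second list and no separate evidence.

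**Figure D5:**
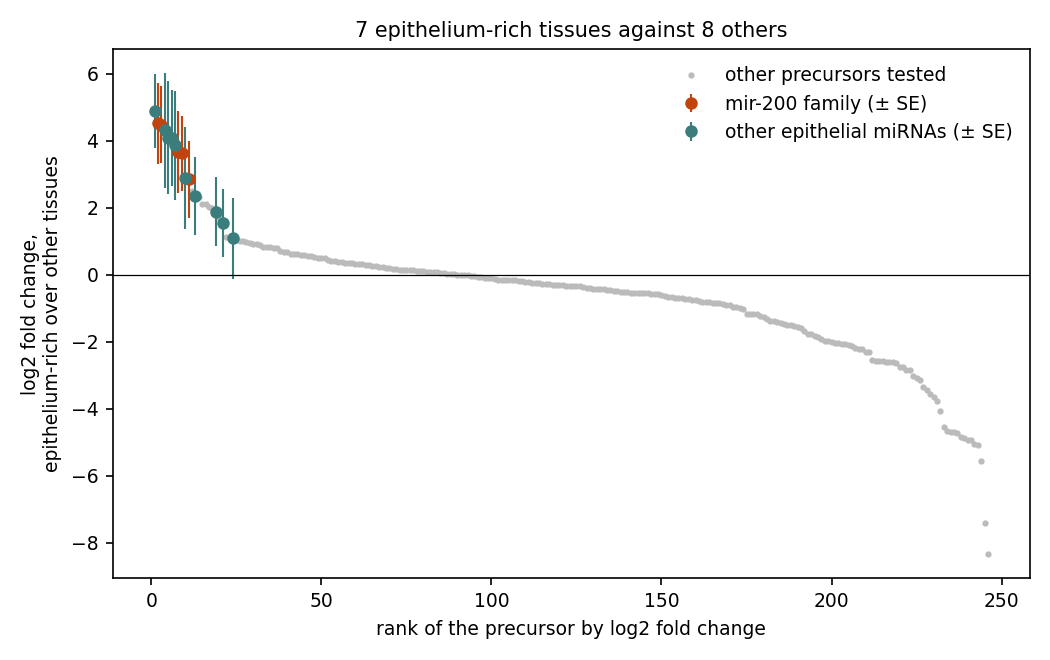
Log2 fold change of 7 tissues rich in epithelium over 8 other tissues for each of the 246 precursors tested, ordered by rank, with the mir-200 family in orange and 10 other epithelial miRNAs in green, both drawn with their SE. The 5 family members hold ranks 2 to 11, from 4.51 for mir-200b to 2.85 for mir-141.

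Other miRNAs known from particular cell types place these values. None was called in this comparison by edgeR. All 10 other epithelial miRNAs were positive, with a median log2 fold change of 3.37, from 4.88 for mir-203a, known from keratinocytes (SE 1.10, adjusted p = 0.0832), to 1.08 for mir-183 (adjusted p = 0.673). The 4 mesenchymal and smooth muscle miRNAs, which the gut wall also carries, were positive as well, with a median of 1.46 and mir-145 at 2.50, and their summed level was 615854 RPM in stomach and 320014 RPM in large intestine. The 5 leukocyte miRNAs had a median of -2.05, the 3 tested striated muscle miRNAs -3.45, both tested erythroid miRNAs were negative with a median of -3.66, and mir-122 stood at 0.54. The 3 precursors of the neuronal list, mir-124-1 to mir-124-3, did not pass the count filter. The part that any of these other cell types had in the family's values was not tested.

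Outside the family, the precursors with profiles most like the summed family over the 15 tissues were mir-182 (Pearson r 0.907), mir-96 (0.857), mir-3553 (0.840), mir-183 (0.838) and mir-582 (0.701), of 241 compared on the log2(RPM + 1) scale. The hairpins mir-182, mir-96 and mir-183 form one known cluster, and RefSeq places Mir3553 opposite Mir183. Their own order differed from that of the family: each was highest in brain, as with mir-182 at 41799 RPM there and 38034 RPM in skin, whereas the family was highest in large intestine. The same 5 were closest without the library labelled pancreas. Their class differences were smaller, with log2 fold changes of 1.89 for mir-182 (SE 1.04, adjusted p = 0.333) and 1.56 for mir-96 (SE 1.01, adjusted p = 0.441; edgeR).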

How the data were processed

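Small RNA was extracted with miRNeasy kits, made into TruSeq libraries and sequenced on a MiSeq; the authors trimmed base calls below phred 20, aligned reads to rat Rn5 with Bowtie and quantified them in Partek Flow and Strand NGS. The values the authors deposited are estimated counts per feature, not normalized, under 3 stacked annotations (RefSeq, miRBase 21 precursors and mature arms); 13.0% of precursor values were fractional. Tool versions are not given in the sources used here. Each annotation was analysed alone, since all 3 count the same reads. A RefSeq total need not equal the precursor total, and a miRNA absent from 1 list moves every RPM on it.

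Levels are RPM with 95% Wilson intervals. For tests, counts were rounded and fitted over all features with edgeR 4.0.16 in R 4.3.3 (TMM, quasi-likelihood test, Benjamini-Hochberg adjustment, threshold 0.05, at least 10 counts in at least 3 libraries), and also with DESeq2 1.42.0 (positive-count size factors). Only the edgeR fit was tried on simulated data. Alternatives changed the scaling, filter, annotation, pseudocount, tissue classes and libraries. Tissue classes follow textbook anatomy. The 5 precursors, their arms, the 5 precursors with the closest profiles and at most 4 examples of each marker list are named. Members, lists and classes were chosen with earlier results of these data known. The labels do not say that an equal number marks 1 rat in brain and serum, so the numbers were not taken as pairs.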

Additional observations from a re-analysis of the deposited data

How the results depend on the processing

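Between brain and serum, mir-141, mir-200a, mir-200b and mir-429 stayed called in each of the 7 alternatives that tested them, but these all keep the 3 hemispheres, through which the members passed the filter. Over all precursors, with 10 counts in every library, 26 were higher in brain and 20 in serum, and leaving out 1 library gave 29 to 102 and 25 to 43, the low ends without a hemisphere, where 68 precursors were tested instead of 235. With the replicate block 97 were higher in brain and 44 in serum and no member's call changed; same-numbered samples did not deviate together (r 0.0953, -0.145 and -0.0352 over 73 precursors) and not every sample correlated best with its own number. Brain against the pools gave 119 lower with DESeq2, 123 higher and 24 lower with library totals (where mir-200a reversed to 0.91 and mir-429 to 0.94), 11 and 21 with 10 counts in every library, and 24 to 26 higher and 14 to 16 lower without 1 hemisphere.

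For the tissue classes, precursor calls were 7 higher and 5 lower with DESeq2, 1 higher with 10 counts in every library, 9 and 4 with liver counted as epithelium-rich, 4 and 2 with liver, thymus and testes left out, and 0 to 8 higher and 0 to 4 lower when leaving out 1 tissue, the high ends without liver. With liver counted as epithelium-rich, edgeR's adjusted p was 0.0297 for mir-200b and 0.0377 for mir-200c. Over all alternatives adjusted p ran from 0.00226 to 0.225 for mir-200b and from 0.0650 to 0.360 for mir-141, and every member kept its positive sign. Mature arm calls were 2 and 2 with DESeq2, 1 higher without brain, 5 and 2 with liver counted as epithelium-rich, and 0 to 5 higher and 0 to 1 lower without 1 tissue. The causes were not tested.

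TMM scaling moved the brain level minus the median of the 15 tissues (log2) from 1.82 to 0.58 for mir-200a, from 0.74 to -0.025 for mir-200b, from 1.52 to 0.27 for mir-429, from 0.84 to 0.044 for mir-200c and from 0.53 to 0 for mir-141. On the mature list the mir-200c/mir-141 share was 27.6% in brain, 40.4% in large intestine, 63.7% in lung, 81.7% in thymus, 34.1% in small intestine and 21.6% in kidney, and, added after seeing the data, 27.2% in liver and 17.8% in the library labelled pancreas. The mir-200b share of its cluster on that list, computed after seeing the data, was 16.9% in brain, 10.8% in thymus, 33.6% in large intestine, 51.2% in small intestine, 35.8% in liver and 33.8% in the library labelled pancreas, and that of mir-429 was 62.5% in thymus, 39.4% in small intestine and 35.8% in liver. The serum depth and single pools limit the rest.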
